A study of Mus musculus with 23 samples.

Results

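The genes described here are 52 genes of the cell cycle and of mitosis, given as a list of mouse symbols: 19 whose products act in G1 and S phase and 33 whose products act in G2 and mitosis. Each was read from the brightest of its probes, and all 52 were on the array, among 37163 entries in all. Of these, 20018 were gene symbols, and the rest were array names matched to no symbol, which are counted as genes below. They were measured in liver of B6C3F1 mice, all females of this hybrid strain. The mice were bought at 5 to 6 weeks of age, acclimatised for at least 7 days, then gavaged for 21 days, and liver was taken 4 h after the last dose. The groups were 5 control mice given corn oil alone and 4, 5, 4 and 5 mice given furan in corn oil at 1, 2, 4 and 8 mg/kg body weight. Each mouse gave 1 array, and the labels name no other agent for any group. The title of the series names cell death and regenerative proliferation, so the question is whether the division genes were higher in the dosed livers and at which dose. The series text counts 25 samples, of which 23 were analysed here.

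Each array compared liver RNA, labelled with Cy5, with a universal mouse reference RNA, labelled with Cy3. A value below is the log2 ratio of liver to reference minus the mean of the 5 controls, so 0 is the control mean and 1 is a doubling of the ratio. A change is a difference between 2 group means on that log2 scale with its standard error. A gene passed when limma's adjusted p, over the 19899 genes tested, was under 0.05. Of those 19899, 12927 had a gene symbol, and shares of all genes below are over the 19899. The p-values measure the spread between animals together with that between their arrays and the slides that held them. Before the results, 5 arrays need naming: pancreatic transcripts stood high on 4 of them (1 of the 8 mg/kg group and 3 of lower doses) and neutrophil transcripts on replicate 4 at 2 mg/kg. Results with and without them are given.

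Cells that leave rest first make D cyclins, which release E2F factors. These switch on the genes for replication origins, for nucleotides and for DNA synthesis, which is the G1/S set. Later in the cycle FOXM1 and MYB-containing complexes switch on the genes for mitotic entry, the spindle and the division of the cell body, which is the G2/M set. Adult liver cells seldom divide but re-enter the cycle after injury, and many hepatocytes replicate DNA without dividing. Whole liver also holds blood and sinusoidal cells that can divide, and in such bulk RNA more dividing cells cannot be told apart from more RNA per dividing cell.

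At 8 mg/kg several genes of the spindle and of cytokinesis and a pair of replicative helicase genes were higher than in controls, and a thymidine kinase gene was lower. Of the 41 members that could be tested, 8 rose and 1 fell, against 4.25% of all genes tested that rose and 3.76% that fell (8.01% in either direction). Of 24 G2/M genes tested, 6 rose (Ect2, Kif20a, Cenpe, Tpx2, Birc5 and Cdca3) and 0 fell; of 17 G1/S genes tested, 2 rose (Mcm6 and Mcm7) and 1 fell (Tk1). The median change was 0.62 over the G2/M genes and 0.17 over the G1/S genes, beside -0.027 over all genes tested. Every mouse at 8 mg/kg was above every control for 6 members (Mcm7, Ccnb2, Cenpe, Tpx2, Cdca3 and Kif20a), a pattern that 4.44% of all genes tested showed. Every mouse at 8 mg/kg was below every control for 1 member, Tk1, where 4.32% of all genes tested showed it. Without adjustment, 21 members had a higher value and 1 a lower value at p under 0.05, beside 10% and 11% of all genes.

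**Figure D1:**
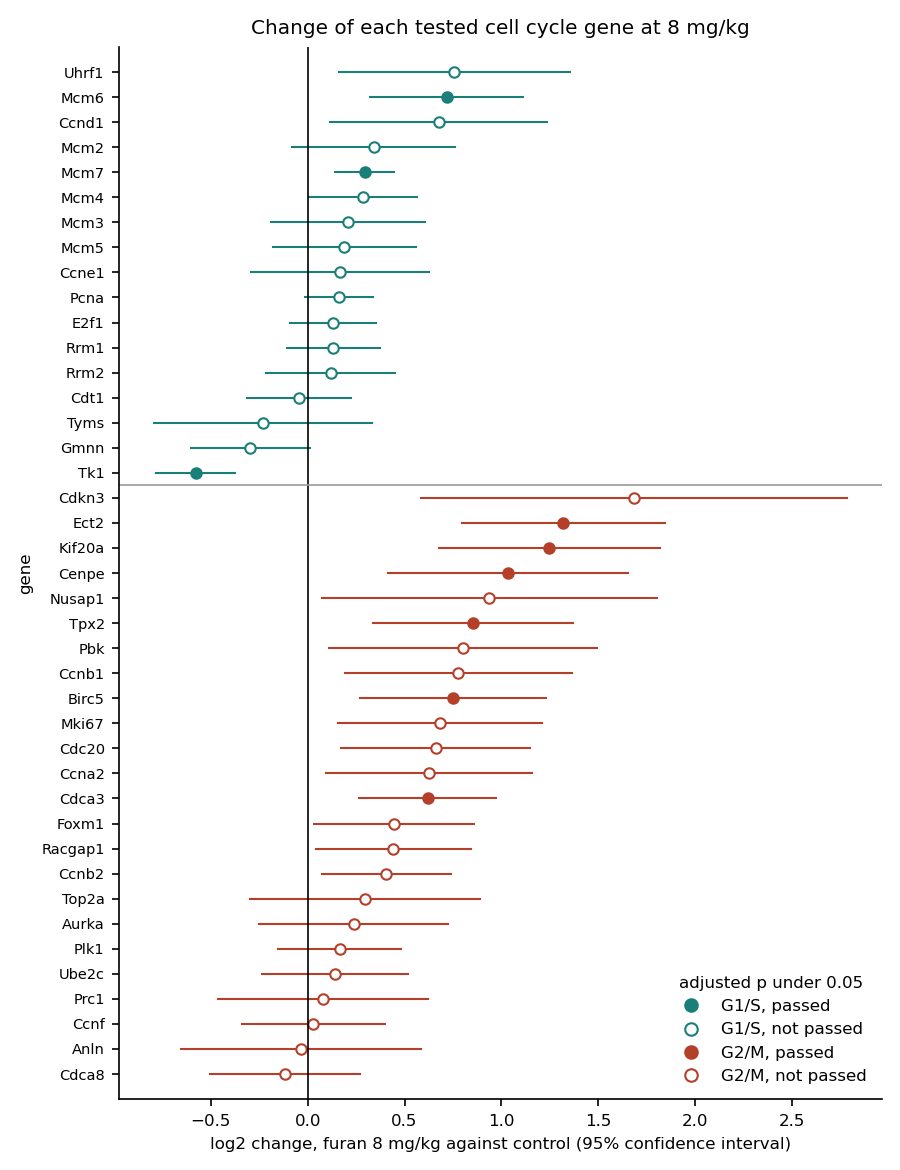
Log2 change between 8 mg/kg and control (x axis) for each of the 41 members tested, with its 95% confidence interval as a line; G1/S genes are above the grey line and G2/M genes below it, and filled points have an adjusted p under 0.05. Of the 24 G2/M genes, 22 lie right of 0 (Nusap1, kept through the 8 mg/kg arrays alone, is among them), and Tk1 is the 1 filled point left of 0. Over all 19899 genes tested, 8911 changes were above 0.

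The G2/M calls depended on which signals were used. The median spot signals after normexp correction, or the authors' value table, were used in place of the processed signals. With either, 3 of the 9 passed (Mcm6, Mcm7 and Tk1), all of them G1/S genes. The median over the G2/M genes was then 0.28 and 0.24, and that over the G1/S genes 0.13 and 0.10. The gap between the phases was thus narrower than with the processed signals. With these 2 sets of values the change was 0.61 and 0.58 for Ect2, 0.74 and 0.70 for Kif20a, 0.44 and 0.45 for Cenpe, 0.20 and 0.18 for Tpx2, 0.38 and 0.36 for Cdca3 and 0.71 and 0.62 for Birc5. With the slide as a block, 14 members passed, 13 higher and 1 lower: the same 9 and Uhrf1, Ccnb1, Ccnb2, Foxm1 and Cdc20. The number of all genes called grew with that block too, from 1593 to 2325 of 19899 (1183 higher and 1142 lower).

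Of the 52 members, 11 were not tested because in no group did at least 4 arrays show them well above background, which is how dim probes were removed. Ccne2 (cyclin E2) and Cdc6 (origin loading) of the G1/S set were not well above background on any array, nor were Cenpf (kinetochore), Aurkb (chromosomal passenger kinase) and Ttk (checkpoint kinase) of the G2/M set. Cdk1, the kinase that drives entry into mitosis, was well above background on 0 of 5 arrays at 8 mg/kg and on 2 of 5 control arrays, so no fold is given. Melk, Bub1b and Kif23 were each well above background on 3 of 5 arrays at 8 mg/kg, and on 2, 2 and 3 of 5 control arrays. Kif11, the motor that pushes the spindle poles apart, was well above background on 3 arrays at 8 mg/kg and on 0 control arrays. Its mean at 8 mg/kg was at least 1.17-fold higher than in controls, the controls being set at the lowest measurable signal of each array. Bub1, a checkpoint kinase, was well above background on 1 array at 8 mg/kg and 0 control arrays, and Kif23, a motor of the midbody, on 0 of 4 arrays at 4 mg/kg, where it was at least 1.49-fold lower than in controls. Neither difference was tested with the dim probes removed. In a fit without that filter Bub1 changed by 0.59 ± 0.33 at 8 mg/kg (limma adjusted p = 0.508). Kif11 did not pass there either (limma adjusted p = 0.156), and at 4 mg/kg 0 of 52 members passed. Nusap1 passed the filter through the 8 mg/kg group alone, with 5 arrays there and 2 in controls, so its change is a description. Without it the G2/M median was 0.62 over 23 genes, 21 of them positive, and 20 members had a higher value at an unadjusted p under 0.05. Over all 19899 genes tested, 8911 changes were positive and 1990 had a higher value at that p.

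**Figure D2:**
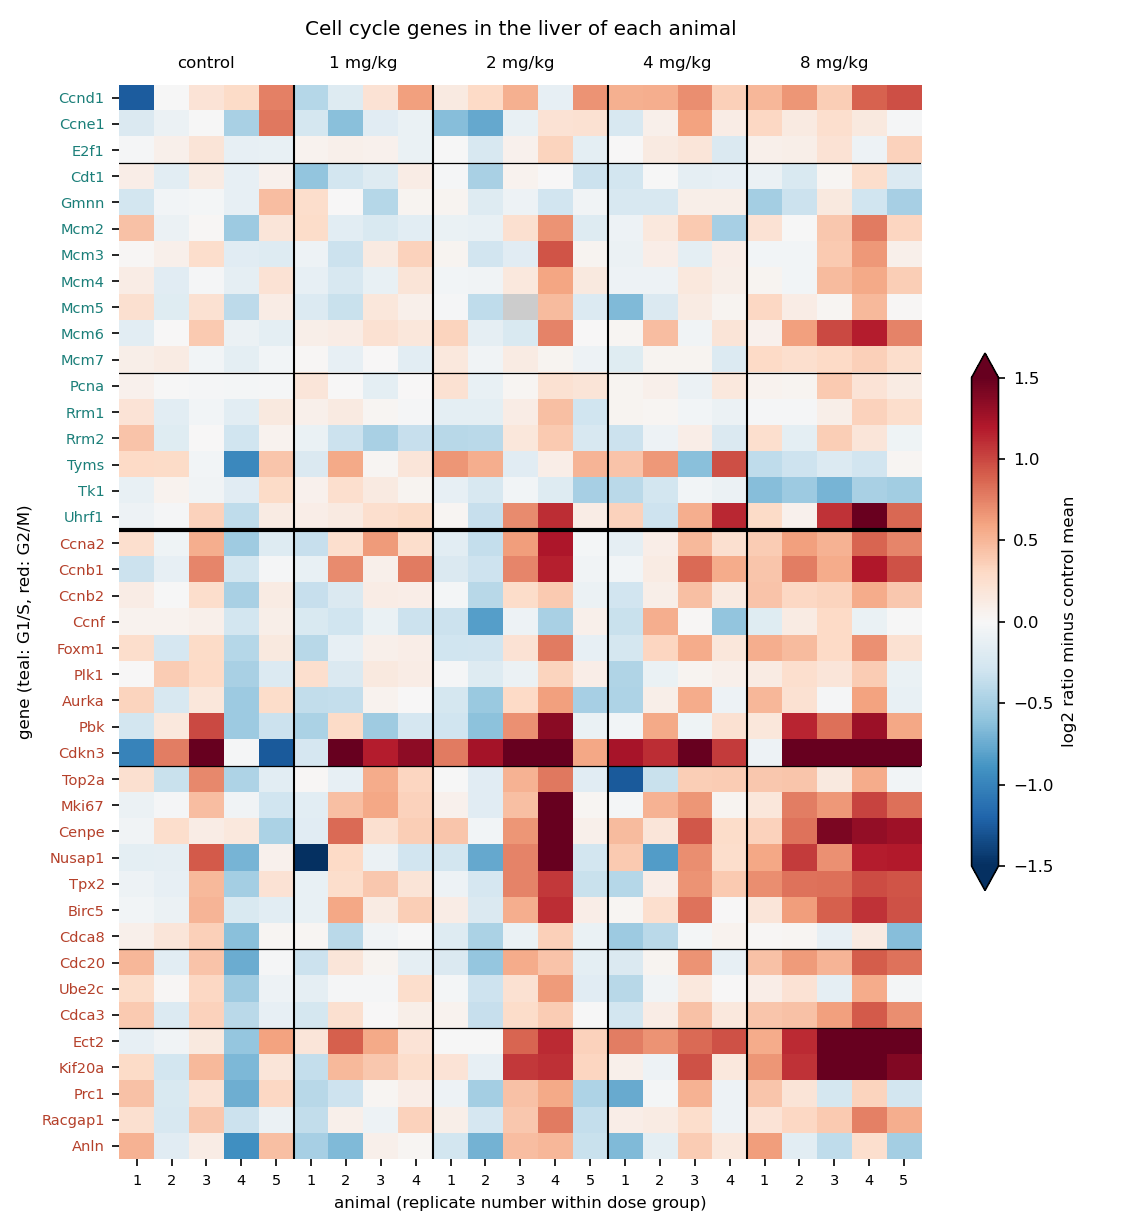
Log2 ratio minus the control mean (colour, from -1.5 to 1.5) of the 41 tested members (rows, G1/S names in teal and G2/M names in red, lines between roles) in each of the 23 animals (columns, by dose from control to 8 mg/kg). The red block at 8 mg/kg lies mostly in the G2/M rows, and replicate 4 at 2 mg/kg stands out among the lower doses; the grey cell is a spot marked as an outlier.

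The promoters of the members carry the motifs these 2 programmes are known for. RefSeq windows from 250 bases before to 50 after the start of the gene (build GRCm38.p6) were found for 42 of the 52 members, and both strands were searched. The CHR element, TTTGAA, which FOXM1 and MYB complexes use, was in 21 of 27 G2/M genes (77.8%), 1 of 15 G1/S genes (6.67%) and 20.2% of all 27025 genes. An E2F site was in 7 of 15 G1/S genes (46.7%), 1 of 27 G2/M genes (3.7%) and 2.6% of all genes. It was searched as TTTCGCGC or TTTGGCGC or TTTCCCGC or TTTGCCGC, and matches on opposite strands can overlap, as they do at 1 place in the Mcm6 window. The CCAAT box was in 85.2% of G2/M, 60% of G1/S and 41.1% of all genes. Of the 6 members that rose and have a window, Ect2 and Cdca3 hold a CHR element and Mcm6 and Mcm7 an E2F site, while Birc5 and Cenpe hold neither in this window. The windows of Ect2 (chr3:27153805-27154104, minus strand), Cdca3 (chr6:124829926-124830225, plus strand), Mki67 (chr7:135716330-135716629, minus strand), Mcm6 (chr1:128359656-128359955, minus strand) and Tk1 (chr11:117825965-117826264, minus strand) are shown because they set a mitotic pair and the usual proliferation marker beside the replication gene with the highest change that passed and the 1 member that fell. Capitals mark the CHR, CCAAT and E2F letters on either strand.
Ect2: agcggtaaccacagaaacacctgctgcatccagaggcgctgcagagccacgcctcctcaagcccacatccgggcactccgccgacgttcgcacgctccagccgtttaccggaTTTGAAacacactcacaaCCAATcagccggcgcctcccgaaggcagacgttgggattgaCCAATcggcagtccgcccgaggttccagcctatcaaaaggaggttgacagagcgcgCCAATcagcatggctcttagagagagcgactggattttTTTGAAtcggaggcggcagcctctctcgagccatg
Cdca3: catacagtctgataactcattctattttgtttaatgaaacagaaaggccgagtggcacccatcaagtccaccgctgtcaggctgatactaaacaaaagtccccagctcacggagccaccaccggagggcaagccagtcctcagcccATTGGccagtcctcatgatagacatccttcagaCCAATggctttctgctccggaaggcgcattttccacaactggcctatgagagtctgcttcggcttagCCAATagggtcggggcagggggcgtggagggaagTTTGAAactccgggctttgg
Mki67: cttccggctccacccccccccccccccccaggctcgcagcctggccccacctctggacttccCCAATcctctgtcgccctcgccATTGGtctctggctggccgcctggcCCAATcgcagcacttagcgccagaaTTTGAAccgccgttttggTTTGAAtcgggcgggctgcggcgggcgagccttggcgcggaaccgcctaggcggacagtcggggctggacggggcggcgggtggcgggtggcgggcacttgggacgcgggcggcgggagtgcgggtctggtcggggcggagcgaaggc
Mcm6: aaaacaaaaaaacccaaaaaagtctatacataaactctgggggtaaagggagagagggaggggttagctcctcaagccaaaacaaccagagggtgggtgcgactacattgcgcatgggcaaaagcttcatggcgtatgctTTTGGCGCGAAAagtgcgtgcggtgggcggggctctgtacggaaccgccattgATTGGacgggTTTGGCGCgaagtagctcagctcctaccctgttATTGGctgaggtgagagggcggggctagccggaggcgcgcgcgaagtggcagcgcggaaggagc
Tk1: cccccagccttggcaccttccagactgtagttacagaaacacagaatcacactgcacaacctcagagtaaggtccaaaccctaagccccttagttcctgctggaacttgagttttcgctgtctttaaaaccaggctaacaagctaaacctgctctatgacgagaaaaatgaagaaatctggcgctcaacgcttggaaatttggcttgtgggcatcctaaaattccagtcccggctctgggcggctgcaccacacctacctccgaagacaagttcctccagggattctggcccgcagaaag
The Tk1 window holds none of the 3 motifs.

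**Figure D3:**
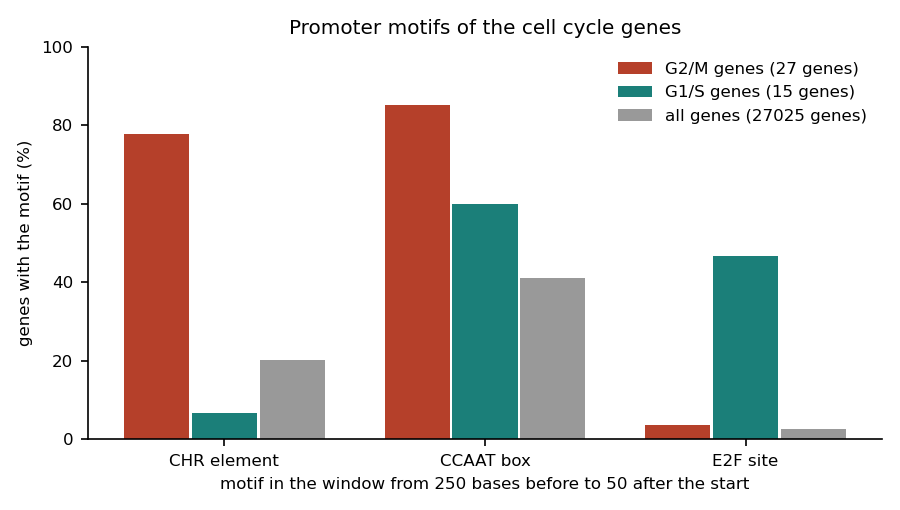
Share of genes (y axis, percent) whose promoter window holds each motif (x axis), for 27 G2/M genes, 15 G1/S genes and all 27025 genes with a window. The CHR element marks most of the G2/M genes and E2F sites mark 46.7% of the G1/S genes.

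Of the G1 cyclins and E2F1, 0 of 3 tested passed. Ccnd1, cyclin D1, was at 0.50, 0.67, 0.36, 0.88 and 0.97 in the 8 mg/kg mice, against -1.24, 0.00, 0.21, 0.28 and 0.75 in controls. The groups overlapped, control replicate 1 lay far below the rest, and the change of 0.68 ± 0.27 did not pass (limma adjusted p = 0.139). Its means at 1, 2, 4 and 8 mg/kg were 0.051, 0.31, 0.53 and 0.68. Ccne1 (cyclin E1) changed by 0.17 ± 0.22 and E2f1 by 0.13 ± 0.11.

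In origin licensing and the replicative helicase, 2 of 8 genes tested rose, both of them subunits of the MCM helicase. Mcm6 was at 0.060, 0.61, 0.99, 1.18 and 0.75 in the 8 mg/kg mice, against -0.16, 0.00, 0.40, -0.09 and -0.15 in controls. All but replicate 1 at 8 mg/kg lay above every control, and the change of 0.72 ± 0.19 passed (limma adjusted p = 0.0230), as it did in 19 of 23 fits that left out 1 animal. Mcm7 was at 0.30, 0.25, 0.30, 0.36 and 0.26 at 8 mg/kg, against 0.09, 0.13, -0.04, -0.15 and -0.04 in controls. The step was small, 0.30 ± 0.073 or 1.23-fold, but the 8 mg/kg mice spread by an SD of 0.044 and did not overlap the controls (limma adjusted p = 0.0156). The other 4 subunits measured gave changes of 0.34 ± 0.20 (Mcm2), 0.29 ± 0.13 (Mcm4), 0.21 ± 0.19 (Mcm3) and 0.19 ± 0.18 (Mcm5), none past the threshold. Mcm2 was at 0.21, -0.01, 0.40, 0.78 and 0.32 at 8 mg/kg, against 0.44, -0.09, 0.012, -0.54 and 0.19 in controls (limma adjusted p = 0.362). Cdt1, which loads the helicase, and Gmnn (geminin), which blocks Cdt1, changed by -0.044 ± 0.13 and -0.30 ± 0.15.

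Among genes of the fork and of nucleotide supply, 0 of 6 rose and 1 fell. Tk1, the cytosolic thymidine kinase of the salvage pathway, was at -0.64, -0.55, -0.70, -0.49 and -0.52 in the 8 mg/kg mice, against -0.11, 0.05, -0.05, -0.17 and 0.29 in controls. Every 8 mg/kg mouse lay below every control, and the change was -0.58 ± 0.097, which is 0.67 times the control level (limma adjusted p = 8.99e-04). Its means at 1, 2, 4 and 8 mg/kg were 0.12, -0.22, -0.21 and -0.58, and below 8 mg/kg it did not pass. Pcna, the sliding clamp of the polymerase, was at 0.05, 0.04, 0.40, 0.20 and 0.12 at 8 mg/kg, against 0.059, -0.0027, -0.016, -0.026 and -0.013 in controls. Its change of 0.16 ± 0.083 did not pass (limma adjusted p = 0.278). Rrm2, the S-phase subunit of ribonucleotide reductase, was at 0.25, -0.14, 0.36, 0.18 and -0.07 at 8 mg/kg, against 0.42, -0.18, 0.012, -0.30 and 0.048 in controls (change 0.12 ± 0.16, limma adjusted p = 0.760). Rrm1 (0.13 ± 0.12), Tyms, thymidylate synthase (-0.23 ± 0.27), and Uhrf1, which carries DNA methylation through replication (0.76 ± 0.29, limma adjusted p = 0.114), did not pass either. Uhrf1 had the highest change of the G1/S set, with 3 of 5 mice at 8 mg/kg above every control.

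Of the kinases, cyclins and regulators of mitotic entry, 0 of 9 passed, though all 9 changes were positive and 6 had an unadjusted p under 0.05. Over all 19899 genes tested, 8911 changes were positive and 1990 had a higher value at that p. With the slide as a block 3 of these 9 genes rose: Ccnb1 (limma adjusted p = 0.0184), Ccnb2 (0.0129) and Foxm1 (0.0234). Ccnb1 (cyclin B1) was at 0.42, 0.76, 0.55, 1.20 and 0.96 at 8 mg/kg, against -0.32, -0.12, 0.73, -0.28 and -0.02 in controls. Control replicate 3 alone overlapped the 8 mg/kg mice, and the change of 0.78 ± 0.28 did not pass (limma adjusted p = 0.0975). Without that animal Ccnb1 passed (adjusted p = 0.0457), the 1 of 23 fits leaving out 1 animal in which it did. A second Ccnb1 probe gave 0.41 ± 0.31 (limma adjusted p = 0.512 over probes). Ccnb2 (cyclin B2) was at 0.43, 0.31, 0.33, 0.55 and 0.40 at 8 mg/kg, against 0.11, -0.01, 0.27, -0.49 and 0.12 in controls. Its groups did not overlap, the change was 0.40 ± 0.16 (limma adjusted p = 0.134), and its slope on dose passed (adjusted p = 0.0380). Cdkn3, a phosphatase of cyclin-dependent kinases, had the highest change of all members, 1.69 ± 0.53 (limma adjusted p = 0.0537). Its 8 mg/kg mice ran from -0.07 to 2.56 and its controls from -1.26 to 1.51. Ccna2 (cyclin A2, 0.63 ± 0.26), Pbk (a mitotic kinase, 0.80 ± 0.33), Foxm1 (0.45 ± 0.20), Aurka (0.24 ± 0.23), Plk1 (0.16 ± 0.15) and Ccnf (0.029 ± 0.18) did not pass.

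Of the genes of mitotic chromosomes and the spindle, 3 of 7 tested rose. Cenpe, the kinetochore motor that lines up chromosomes, was at 0.35, 0.81, 1.42, 1.31 and 1.27 at 8 mg/kg, against -0.05, 0.26, 0.11, 0.15 and -0.47 in controls. The groups did not overlap, and the change was 1.03 ± 0.30 (limma adjusted p = 0.0352). Cenpe passed in 16 of 23 fits that left out 1 animal. Tpx2, which activates Aurora A on the spindle, was at 0.70, 0.81, 0.83, 0.98 and 0.94 at 8 mg/kg, against -0.07, -0.12, 0.49, -0.51 and 0.22 in controls. The 8 mg/kg mice lay close together, with an SD of 0.11 against 0.38 in controls, and the change was 0.85 ± 0.25 (limma adjusted p = 0.0374). Tpx2 passed in 15 of the 23 fits, and its change was 0.20 with normexp and 0.18 in the authors' value table. Birc5 (survivin, of the chromosomal passenger complex) was at 0.18, 0.62, 0.90, 1.08 and 0.96 at 8 mg/kg, against -0.04, -0.09, 0.51, -0.23 and -0.16 in controls. Its change of 0.75 ± 0.23 sat at the threshold (limma adjusted p = 0.0498), and it passed in 5 of the 23 fits. A second Birc5 probe gave 0.39 ± 0.23 (limma adjusted p = 0.370 over probes).

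Mki67, which coats mitotic chromosomes and is the usual marker of proliferation, was at 0.17, 0.77, 0.65, 1.01 and 0.82 at 8 mg/kg, against -0.09, -0.02, 0.47, -0.05 and -0.30 in controls. Of the 5 mice at 8 mg/kg, 4 lay above every control, and the change of 0.68 ± 0.25 did not pass (limma adjusted p = 0.106). Its second probe gave 0.63 ± 0.25. Without replicate 4 at 2 mg/kg, whose own value was 1.49, the limma adjusted p was 0.0255. That was the 1 of 23 fits leaving out 1 animal in which Mki67 passed, and it passed in 0 of 15 other settings. Top2a (topoisomerase II alpha) was at 0.40, 0.42, 0.15, 0.55 and -0.04 at 8 mg/kg, against 0.24, -0.33, 0.72, -0.46 and -0.16 in controls, with a change of 0.30 ± 0.28 (limma adjusted p = 0.627). Cdca8 (borealin, -0.12 ± 0.19) did not pass, and Nusap1 (spindle microtubules) was at 0.58 to 1.19 in the 8 mg/kg mice, against -0.69 to 0.92 in controls.

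In the spindle checkpoint and anaphase group 1 of 3 genes tested rose. Cdca3, which takes part in the destruction of mitotic inhibitors, was at 0.42, 0.44, 0.62, 0.92 and 0.70 at 8 mg/kg, against 0.39, -0.21, 0.35, -0.40 and -0.13 in controls. The groups did not overlap, though the gap between them was narrow, and the change was 0.62 ± 0.17 (limma adjusted p = 0.0280). Cdca3 passed in 17 of 23 fits that left out 1 animal. Cdc20, the activator of the anaphase-promoting complex, was at 0.44, 0.63, 0.51, 0.91 and 0.82 at 8 mg/kg, against 0.50, -0.15, 0.43, -0.75 and -0.02 in controls. Its change of 0.66 ± 0.23 did not pass (limma adjusted p = 0.0914), while its slope on dose did (adjusted p = 0.0279). Ube2c, the ubiquitin-conjugating enzyme of the same complex, changed by 0.14 ± 0.18, and its second probe by 0.39 ± 0.20.

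Cytokinesis held the members with the highest changes that passed. Ect2, the exchange factor that activates RhoA at the cleavage site, was at 0.56, 1.12, 1.52, 1.69 and 1.70 at 8 mg/kg, against -0.12, -0.06, 0.15, -0.58 and 0.61 in controls. Replicate 1 at 8 mg/kg overlapped control replicate 5, and the change was 1.32 ± 0.25 or 2.49-fold (limma adjusted p = 0.00258). Kif20a, a motor of the midzone, was at 0.66, 1.08, 1.52, 1.58 and 1.39 at 8 mg/kg, against 0.29, -0.28, 0.49, -0.68 and 0.18 in controls. No 8 mg/kg mouse overlapped a control, and the change was 1.25 ± 0.27 or 2.37-fold (limma adjusted p = 0.00727). Racgap1, a partner of Ect2 in the same pathway, changed by 0.44 ± 0.19 (limma adjusted p = 0.183), Prc1 by 0.079 ± 0.26 and Anln by -0.034 ± 0.30, and these 3 did not pass. The changes of Prc1, Anln, Ccnf, Cdca8 and Cdt1 were near 0 and turned sign in 2 to 9 of 38 other fits.

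**Figure D4:**
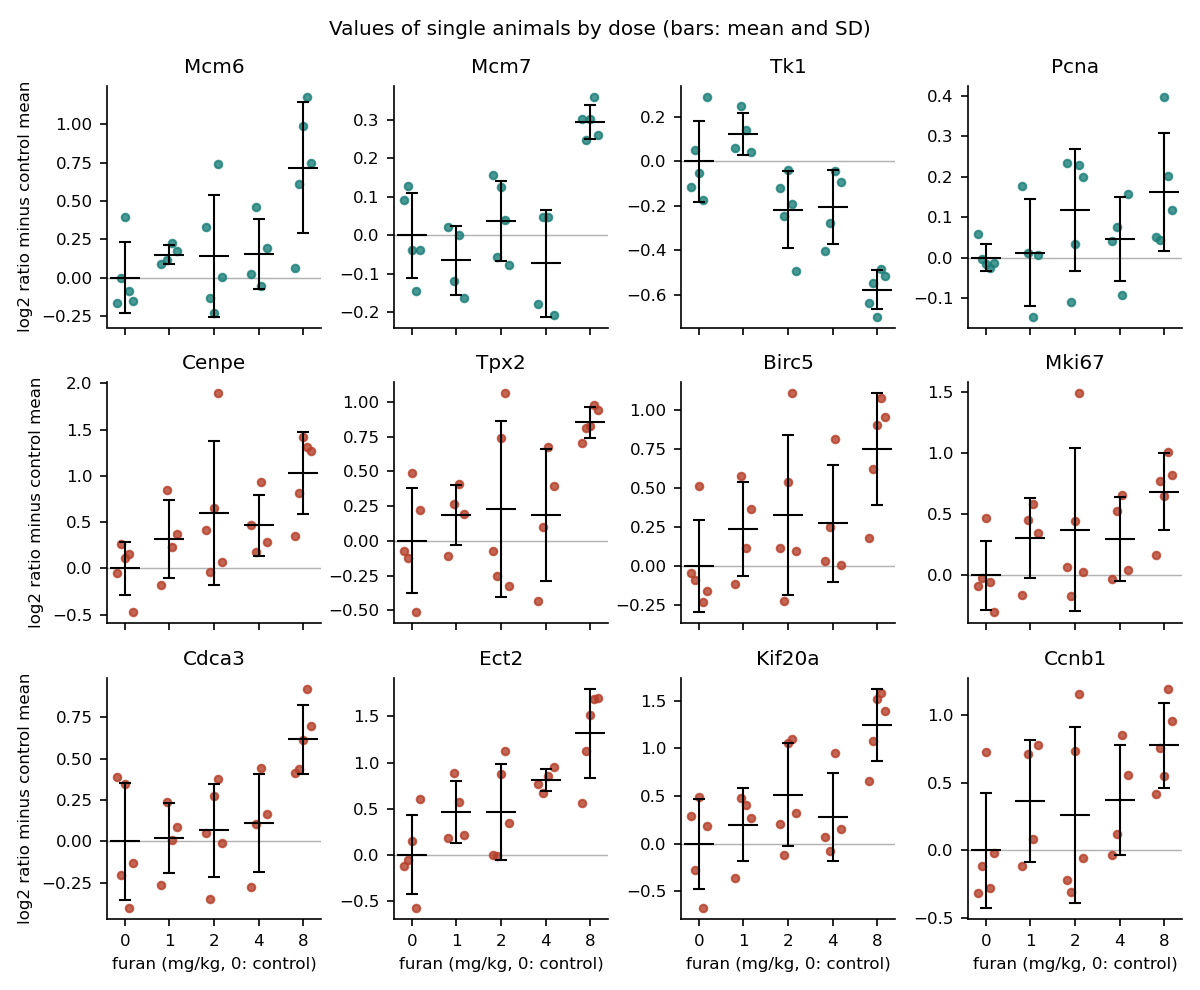
Log2 ratio minus the control mean (y axis, own scale in each panel) of single animals by dose (x axis) for the 9 members that passed at 8 mg/kg and for Pcna, Mki67 and Ccnb1, which did not; black bars are the mean and SD, with 4 or 5 animals a group. Mcm7 is near 0 up to 4 mg/kg and steps up at 8 mg/kg, Ect2 is above 0 in all 4 animals at 4 mg/kg, and Tk1 is lowest at 8 mg/kg.

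Below 8 mg/kg no member passed. At 4 mg/kg 0 of 41 passed, where 0.0804% of all genes did (0.0503% higher, 0.0302% lower), and 2 members had an unadjusted p under 0.05. At 2 mg/kg 0 passed, beside 0.0101% of all genes (0.00503% higher, 0.00503% lower), with 2 members under 0.05 unadjusted. At 1 mg/kg 0 passed beside 0% of all genes, with 0 under 0.05 unadjusted. Over all 19899 genes tested, the unadjusted counts were 801 higher and 969 lower at 4 mg/kg. They were 874 and 850 at 2 mg/kg and 313 and 389 at 1 mg/kg. The G2/M median was 0.020, 0.16, 0.12 and 0.62 at 1, 2, 4 and 8 mg/kg, and the G1/S median 0.013, 0.038, -0.0051 and 0.17. All 4 comparisons share the 5 controls. Ect2 had means of 0.46, 0.46, 0.81 and 1.32 along the doses, and all 4 mice at 4 mg/kg (0.67 to 0.95) lay above every control, whose highest value was 0.61. That 4 mg/kg change of 0.81 did not pass, and the share of all genes so separated at 4 mg/kg was not counted.

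Set directly against 4 mg/kg, 8 mg/kg gave 0 members past the threshold by limma, beside 0.206% of all genes (0.171% higher, 0.0352% lower). Of the 41 changes, 38 were positive, all 24 G2/M genes (Nusap1 included) among them, beside 10025 of the 19899 genes tested. At an unadjusted p under 0.05, 6 members were higher and 1 lower at 8 mg/kg, beside 909 higher and 769 lower of the 19899 genes tested. Mcm7 came closest, with a change of 0.37 (limma adjusted p = 0.0547). It passed with the slide as a block (adjusted p = 0.0295). The slope on dose passed for 11 members, 10 positive and 1 negative, where 5.32% of all genes had a positive and 5.07% a negative slope past the threshold (10.4% in all). They were the 9 of the 8 mg/kg comparison with Ccnb2 and Cdc20. Without replicate 4 at 2 mg/kg the slope passed for 19 members. The number of all genes called at 8 mg/kg grew there too, to 1784 from 1593 with all arrays. The share of all genes whose slope passed in that fit is not given.

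The spread among mice was wider for the mitotic than for the replication genes. Among the controls the SD of a gene had a median of 0.38 over the G2/M genes, 0.23 over the G1/S genes and 0.21 over all genes tested; at 8 mg/kg these were 0.30, 0.20 and 0.20. The median over the 24 G2/M genes was 0.41, 0.55, 0.51, 0.89 and 0.64 in the 8 mg/kg mice, against 0.092, -0.10, 0.38, -0.50 and -0.019 in controls, so the groups did not overlap. Nusap1, which entered the test through the 8 mg/kg arrays alone, is among the 24, so these medians are a description. The G1/S median was 0.060, -0.0082, 0.30, 0.34 and 0.12 at 8 mg/kg, against 0.059, -0.013, 0.012, -0.16 and 0.13 in controls, and these overlapped. Within a mouse the G2/M median exceeded the G1/S median by 0.21 to 0.56 at 8 mg/kg and by -0.34 to 0.36 in controls. Replicate 4 at 8 mg/kg held the highest value of its group for 17 of the 24 G2/M genes and 10 of the 17 G1/S genes. Control replicate 3 was highest of the controls for 15 G2/M genes, and control replicate 4 for 0.

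**Figure D5:**
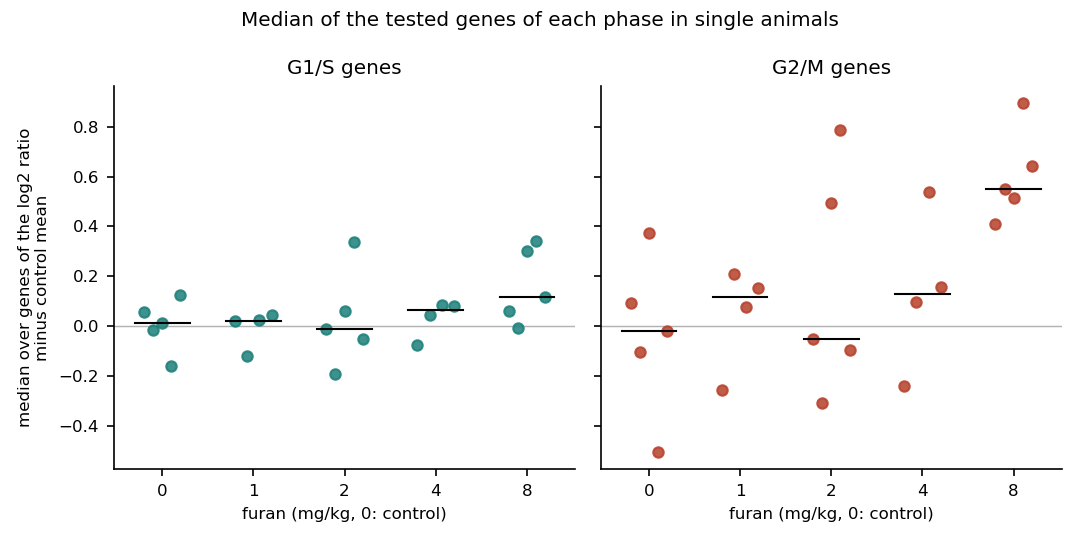
Median over the 17 tested G1/S genes (left) and the 24 tested G2/M genes (right) of the log2 ratio minus the control mean (y axis) in single animals by dose (x axis); each point is 1 animal and black lines are group medians. The 8 mg/kg animals sit at 0.41 to 0.89 for the G2/M genes, above all controls, and 1 animal at 2 mg/kg is at 0.79. The G2/M genes include Nusap1, kept through the 8 mg/kg arrays alone.

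Outside the top dose 3 mice had a G2/M median inside the range of the 8 mg/kg mice: replicates 3 (0.49) and 4 (0.79) at 2 mg/kg and replicate 3 (0.54) at 4 mg/kg. Replicate 4 at 2 mg/kg had a G2/M median of 0.79 and a G1/S median of 0.34, lay above every control for 19 of 24 G2/M genes, and held the highest value of its group for 22 of them. Cenpe reached 1.90 and Nusap1 1.64 in it. The same array stood apart in neutrophil transcripts: the 4 markers tested of the 10 listed (S100a8, S100a9, Camp and Elane) averaged 2.83 there, against -0.37 to 0.79 in the other 2 mg/kg mice, and its Kupffer cell and macrophage markers averaged 0.95. The neutrophil mean ran from -0.73 to 0.52 in the 8 mg/kg mice, against -0.19 to 0.31 in controls, and 0 of its 4 markers passed. The part of these cells in the 2 mg/kg mouse's values was not tested. In replicate 3 at 4 mg/kg 14 G2/M genes lay above every control, and in replicate 3 at 2 mg/kg 11 did. The share of all genes above every control was not counted for these 3 mice, so their counts are a description.

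The mean of the pancreatic markers, 5 tested of 12 listed, set 4 arrays apart. It was 2.59 in replicate 5 of the 8 mg/kg group, where the other mice ran from -0.27 to 0.092. It was 3.69 in 1 mouse of the 4 mg/kg group and 3.29 and 3.42 in a pair of the 2 mg/kg group, while controls ran from -0.36 to 0.31. Without these 4 arrays, 5 members passed at 8 mg/kg (Mcm7, Tk1, Tpx2, Ect2 and Kif20a), and without these and the neutrophil-rich array 7 passed, the same with Mcm6 and Cenpe. All genes called numbered 1240 and 1439 in these fits, against 1593 with all arrays. The hepatocyte markers, 10 of 10 tested, passed in 0 cases, and their mean ran between -0.43 and 0.69 in the 8 mg/kg mice and between -0.32 and 0.64 in controls. The arrays lay on 5 slides, with arrays of 1 slide deviating together from their group means (median r = 0.22, against -0.066 between slides). On each of the 4 slides with both groups, 8 mg/kg minus control was positive for all 8 members that rose and negative for Tk1. It was 0.32 to 2.27 for Ect2, 0.43 to 2.07 for Kif20a, 0.17 to 0.41 for Mcm7 and -0.75 to -0.34 for Tk1. These members were picked on the same arrays, and where the groups did not overlap the sign was fixed in advance. The slides thus add no support, and the share of all genes with the same sign on each slide was not counted. The G2/M median, with Nusap1 included, was 0.31 to 1.00 within slides and the G1/S median 0.020 to 0.42. Without slide 3, 4 members passed (Mcm7, Tk1, Ect2 and Kif20a), beside 1131 of all genes.

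Cell cycle genes outside the list were read from lists drawn up with earlier results known. Of 40 other G2/M genes tested (62 listed), 4 entered the test through the 8 mg/kg arrays alone. Of the remaining 36, 4 rose and 1 fell at 8 mg/kg, with a median change of 0.22, where 4.25% of all genes rose and 3.76% fell. Aspm, a spindle pole protein, and Ckap2, a spindle protein, are 2 of those 4. They were well above background in all 5 mice at 8 mg/kg and in 0 controls, and were at least 2.69-fold and 1.87-fold higher, as a description. The checkpoint gene Mad2l1 rose by 0.76 ± 0.13 (limma adjusted p = 7.31e-04), Nek2, a centrosome kinase, by 1.58 ± 0.37, and Sgo1, which guards sister cohesion, by 1.23 ± 0.27. Pttg1 (securin, which holds separase in check) fell, at -0.38 ± 0.084 (limma adjusted p = 0.00759). Of 39 other G1/S genes tested (48 listed), 1 entered the test through the 8 mg/kg arrays alone. Beside 4.25% and 3.76% of all genes, 3 of the remaining 38 rose and 2 fell, with a median change of 0.040. Those that rose were Prim1 (primase, 0.49 ± 0.13), Fen1 (flap endonuclease, 0.45 ± 0.12) and Cdc25a (phosphatase of the S-phase kinase, 0.37 ± 0.098). Rfc5 (clamp loader) fell, at -0.26 ± 0.066 (limma adjusted p = 0.0170).

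The change of Cdkn1a, a brake on the cycle, was larger than that of any member. Of 20 genes tested that hold the cycle back, 3 rose and 1 fell at 8 mg/kg, beside 4.25% and 3.76% of all genes. Cdkn1a, the p21 inhibitor of cyclin-dependent kinases, was at 3.06, 2.71, 2.68, 2.74 and 2.73 at 8 mg/kg, against 0.59, 0.095, 0.10, -0.61 and -0.18 in controls. That is a change of 2.79 ± 0.16 (limma adjusted p = 1.98e-09), and Cdkn1a also passed at 4 mg/kg, by 1.29 (adjusted p = 0.00137), and in 8 against 4 mg/kg. Ccng1 (cyclin G1) rose by 1.10 ± 0.12 and Btg2, an antiproliferative gene, by 0.71 ± 0.15, both p53 targets, while Cdkn2d, the p19 inhibitor of cyclin D kinases, fell, at -0.46 ± 0.082 (limma adjusted p = 0.00140).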

How the data were processed

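Per the labels' protocols, total RNA from frozen liver (RNA integrity number above 8.9) was hybridised on 2-colour Agilent arrays with sample in Cy5 and reference in Cy3, with no dye swap. Per the file headers, the authors' scanner files hold 62976 spots with processed signals, an intensity on a linear scale that Feature Extraction 10.7.3.1 had background-subtracted and dye-normalised. The deposited value table holds a Cy5 to Cy3 ratio per probe; its column medians were 0.974 to 0.987, the correlation of its log2 values with those used here was 0.922 to 0.970, and its normalization is not given in the sources used here.

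Log2(Cy5/Cy3) of the processed signals was normalised by loess within each array (span 0.3, 4 iterations), without control spots and outlier spots. Of 55681 probes, 26413 matched 20018 symbols in a GRCm38.p6 gene table, used for names. The other probes kept the name given on the array and were counted as genes. A probe was kept where, in some group, 4 or more arrays had Cy5 well above background (22011 to 30120 probes per array, 0 saturated member spots), and the brightest probe stood for its gene. Groups were fitted with limma 3.58.1 in R 4.3.3 (lmFit, eBayes, a term for group and no other, two-sided tests with Benjamini-Hochberg adjustment, 18 residual and 2.32 prior degrees of freedom), with 8 against 4 mg/kg and a slope on dose in like fits. The code was tested on simulated data. The number of arrays limits the precision; the median residual SD was 0.236 log2 units.

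Alternatives covered background, normalization, filter, probe choice, slide, replicate number and left-out arrays. Named in full were members past the threshold in any comparison, Mki67, Ccnd1, Top2a, Cdk1, Ccnb1, Mcm2, Mcm6, Pcna and Rrm2 whatever their result, and, of other lists, up to 6 genes with the smallest adjusted p. Members, lists and tests were chosen with earlier results of these data known. Markers of T and NK, B and plasma, erythroid, stellate cells and cholangiocytes passed in 0 cases at 8 mg/kg, and 1 of 7 endothelial markers was lower. One gene of the other lists is not reported here.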

Additional observations from a re-analysis of the deposited data

Results flagged for a closer look

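Of 175 groups of values checked, 10 held a sample far from the rest of its group by Dixon's test, where chance flags about 1 in 20. No explanation was tested for any of them. At 8 mg/kg, Cdkn1a in replicate 1 was at 3.06 while the other 4 mice lay at 2.68 to 2.74, and Fen1 in replicate 4 was at 0.78 against 0.32 to 0.45 in the others. At 4 mg/kg, Btg2 in replicate 3 was at -0.032, below 0.077 to 0.096 in the others. At 2 mg/kg, Cdkn2d in replicate 2 was at -0.27, below -0.043 to 0.039. At 1 mg/kg, Mcm2 in replicate 1 was at 0.28, above -0.22 to -0.15, and the median of the G1/S genes in replicate 2 was at -0.12, below 0.021 to 0.044. Among controls, replicate 3 was far above the others for Birc5 (0.51, others -0.23 to -0.040) and Ccnb1 (0.73, others -0.32 to -0.019). Control replicate 1 was high for Pcna, at 0.059 with the others at -0.026 to -0.0027, and control replicate 5 was low for Prim1, at -0.33 with the others at 0.040 to 0.14.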

How the results depend on the processing

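Of the 9 members called at 8 mg/kg, Tk1 and Mcm7 passed in 15 other settings and in 23 fits that left out 1 array; no called change turned its sign. Members called at 8 mg/kg numbered 3 with normexp and in the value table, 4 without a filter (52 members tested) and without slide 3, 5 without the pancreas-rich arrays and 14 with slide as a block. The slope on dose passed for 4 in the value table and without slide 3, 7 without a filter and without the pancreas-rich arrays, and 19 with slide as a block. In 8 against 4 mg/kg 1 member passed with normexp and with slide as a block. All genes called at 8 mg/kg numbered 1593, but 1013 with normexp, 931 in the value table, 930 without a filter and 2325 with slide as a block. They numbered 1131 without slide 3 and 1240 without the pancreas-rich arrays. The G2/M median of 0.62 was 0.28 with normexp and 0.24 in the value table, and the G1/S median of 0.17 was 0.13 and 0.10. Of genes called, 53% were higher, but 73.4% with median centring and 69.2% with normexp. Leaving out 1 array at a time gave 4 to 10 members at 8 mg/kg (4 without 8 mg/kg replicate 3 or 4), 6 to 19 for the slope, 0 to 1 in 8 against 4 mg/kg, 1155 to 1784 genes, and medians of 0.10 to 0.21 (G1/S) and 0.48 to 0.73 (G2/M). The fit with a replicate block called 11 members at 8 mg/kg and 15 for the slope; same-numbered samples deviated with r of -0.24 to 0.40 (median 0.023), so the numbers do not pair the samples. Leaving out slide 3, the pancreas-rich with the neutrophil-rich array, and genes kept through 8 mg/kg alone was chosen after seeing the data. The causes were not tested. Signal over background limits the 11 dim members.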
